A study of Mus musculus with 12 samples.

Results

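The tumor necrosis factor (TNF) superfamily and its receptors were read out in bulk RNA-seq of 12 mouse tumors labelled as melanoma. The family was taken as all protein-coding genes of the count table with a symbol that starts with Tnfsf or Tnfrsf followed by a digit. This gave 31 of 55487 genes, 11 ligands and 20 receptors. Arf6-null tumors (n = 6) had the genotype BrafCA;Cdkn2af/f;Arf6f/f, and wild-type tumors (n = 6) had the genotype BrafCA;Cdkn2af/f. BrafCA is a conditional allele of the Braf oncogene and the f alleles are flanked by recombinase sites, so the wild-type tumors also carried the Braf and Cdkn2a alleles and are called wild type with respect to Arf6. The sources used here do not give the recombinase, the cell type it acted in, the age of the mice or whether each tumor came from its own animal, and p-values therefore cover only the spread among the 12 samples, which may in part be technical. The comparison asks which family members differ in level between tumors of these 2 genotypes. Arf6 encodes a small GTPase of membrane traffic.

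Ligands of the family are trimeric proteins, most of them anchored in the cell membrane, and their receptors signal when the trimer gathers them. Receptors with a death domain can start apoptosis, whereas most others bind TRAF adaptors and feed NF-kB and MAP kinase signaling. In tumors the family is best known for costimulation of T cells, survival of B cells and plasma cells, killing by TNF and TRAIL, and decoy receptors that bind ligand without signaling.

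Library totals ran from 21007954 to 45688253 counts in Arf6-null tumors and from 22211738 to 30326419 counts in wild-type tumors. Arf6 itself averaged 18.3 ± 3.73 CPM (counts scaled to a common library size) in Arf6-null tumors and 110.9 ± 24.9 CPM in wild-type tumors (SD, n = 6 each). This was a log2 fold change of -2.60 with a standard error (SE) of 0.18 and an adjusted p of 0.000101 (edgeR). Some Arf6 RNA thus remained in every Arf6-null tumor, at 12.2 to 22.5 CPM, and the cells it came from were not identified. Library numbers were 19 to 24 for Arf6-null and 1 to 6 for wild type, so anything that follows the library numbering and the genotype cannot be told apart. Of 7 melanocyte markers, Mlana had no count in any library, the pigment enzymes Tyr and Dct reached at most 0.0795 and 0.0347 CPM in any tumor, and 2 (Mitf and Pmel) had enough counts to be tested. The summed level of the list was 9.94 to 31.3 CPM in Arf6-null and 11.9 to 29.2 CPM in wild-type tumors. This sum was mostly Mitf, which averaged 18.2 CPM in Arf6-null and 18.6 CPM in wild-type tumors. Skeletal muscle markers summed to 6.13 to 67.9 CPM in Arf6-null and 29.4 to 2346 CPM in wild-type tumors, with the highest muscle scores in wild-type tumors 3, 4 and 5. Y-linked genes summed to 0.444 CPM or less in Arf6-null tumor 6 and in wild-type tumors 3, 5 and 6, and to 148 to 218 CPM in the other Arf6-null tumors. In wild-type tumor 1 they summed to only 22.3 CPM, against 203 and 248 CPM in wild-type tumors 2 and 4. Fits without the 3 muscle-rich libraries, or with Y-linked expression or the muscle score as a covariate, are given beside the results that they move most.

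No member passed the threshold, an adjusted p of 0.05 in the quasi-likelihood F test of edgeR over all 16225 tested genes. Of the 31 members, 29 had enough counts to be tested, namely all 11 ligands and 18 receptors, and 0 of these 29 were called, against 1.15% of all tested genes. DESeq2 called 1 member, Tnfsf9, against 11.8% of all genes, and limma-voom called 0, against 5.74%. At an unadjusted p of 0.05, 1 member was higher (Tnfsf9) and 1 was lower (Tnfrsf13b), which is 6.9% of the tested members. Among all tested genes 23.4% reached that p, 11.0% as higher and 12.4% as lower. No member had ranges that did not overlap between the genotypes, against 2.36% of all genes (1.15% higher and 1.21% lower). Log2 fold changes, Arf6-null over wild type throughout, were positive for 15 members and negative for 14, beside 47.2% positive and 52.8% negative among all genes. Their median was 0.01 for the family, -0.40 for the ligands and 0.04 for the receptors, beside -0.03 for all tested genes. The members varied more between tumors than most genes did, with a median SE of 0.44 on the log2 scale against 0.22 for all tested genes.

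**Figure D1:**
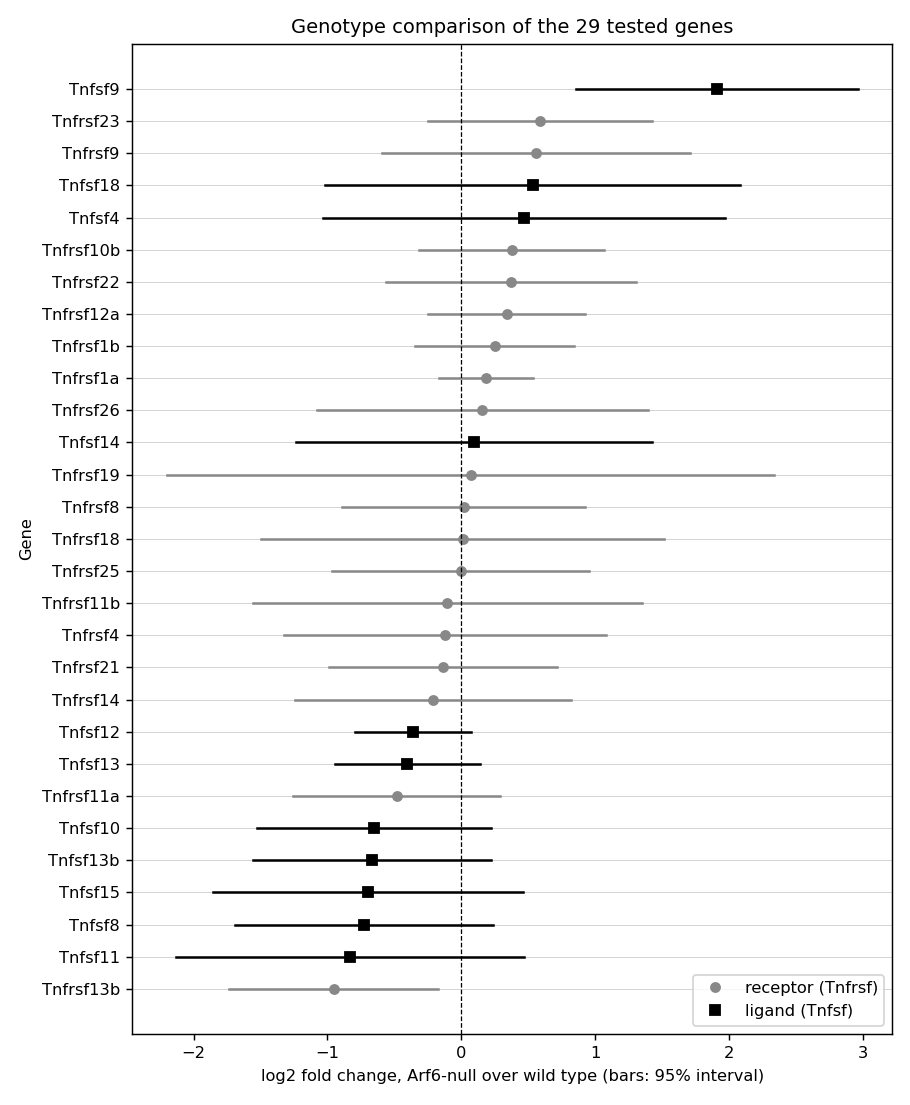
Log2 fold change of each tested member, Arf6-null over wild type, as a point with its 95% interval from edgeR, with black squares for ligands and grey circles for receptors. Most intervals span 0, and those of Tnfsf9 and Tnfrsf13b lie to either side of it although neither passed the adjusted threshold.

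Levels spanned a wide range, compared here as CPM per kilobase of exon so that gene length is taken into account. Averaged over the 12 tumors, the leading members were 3 receptors. Tnfrsf12a, the receptor of TWEAK, stood at 85.5 CPM per kb, the TNF receptor Tnfrsf1a at 78.3 and the second TNF receptor Tnfrsf1b at 34.4. Tnfrsf23, Tnfrsf21 and Tnfrsf9 followed with averages of 14.3, 14.3 and 12.5 CPM per kb. The leading ligand was Tnfsf12 (TWEAK), at 7.92 CPM per kb in Arf6-null and 10.2 in wild-type tumors. Below it the order differed between the genotypes. Tnfsf9 came next in Arf6-null tumors at 6.87 CPM per kb, against 1.83 in wild type, whereas Tnfsf11 stood at 1.93 in Arf6-null tumors and came next in wild type at 3.43. At the low end stood Tnfrsf17 at 0.099 and Tnfrsf13c at 0.0744 CPM per kb, the B-lineage receptors for APRIL and BAFF, and they were the members with too few counts to test. Tnfrsf17 had 10 counts over the Arf6-null and 20 over the wild-type libraries, and Tnfrsf13c had 22 over the Arf6-null and 33 over the wild-type libraries.

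**Figure D2:**
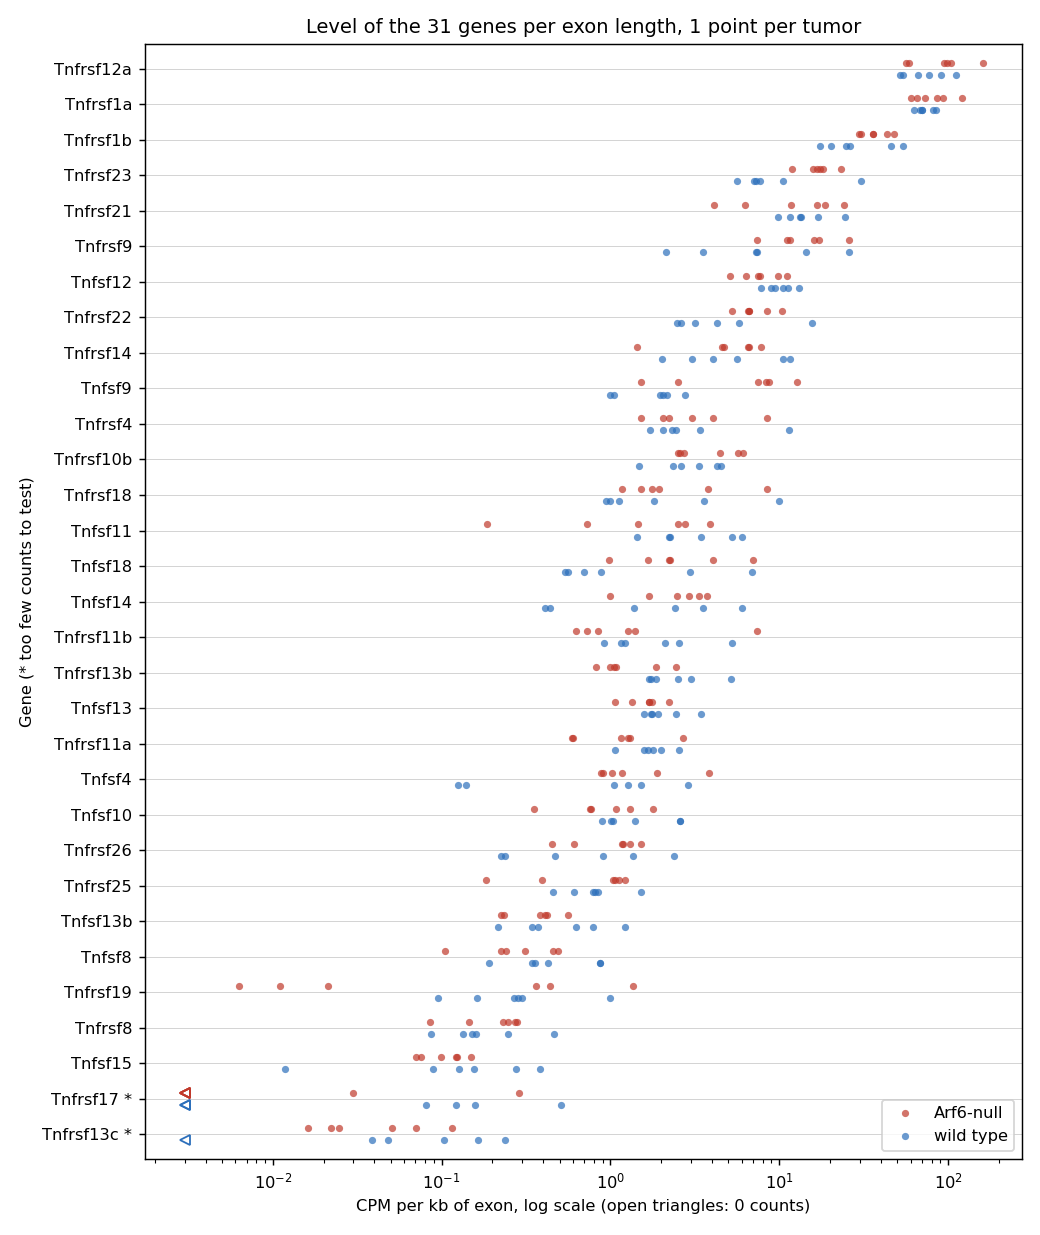
CPM per kilobase of exon on a log axis for all 31 members, each tumor drawn as a point, with Arf6-null above wild type for each member and members ordered by their mean. Tnfrsf12a, Tnfrsf1a and Tnfrsf1b lead at 85.5, 78.3 and 34.4 CPM per kb and the genotypes overlap for every member.

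Among the ligands, Tnfsf9 had the smallest p of the family. It encodes the ligand of Tnfrsf9, a costimulatory receptor of activated T cells and natural killer cells, and lies at chr17:57105325-57107757 (GRCm38, plus strand). Its lowest, median and highest levels were 1.96, 10.2 and 16.3 CPM in Arf6-null tumors, against 1.28, 2.59 and 3.54 CPM in wild-type tumors. Arf6-null tumors 3 and 6, at 1.96 and 3.24 CPM, lay within the wild-type range, and the other 4 lay above all wild-type tumors. The means were 8.86 ± 5.38 CPM in Arf6-null and 2.36 ± 0.882 CPM in wild-type tumors (SD, n = 6 each), a fold of 3.75 with a log2 fold change of 1.91 (SE 0.48, 95% interval 0.86 to 2.96). The adjusted p was 0.0629 in edgeR and 0.00202 in DESeq2. The gene also passed in edgeR without Arf6-null tumor 3 (adjusted p 0.0448) and without Arf6-null tumor 6 (0.0375), the pair inside the wild-type range. It did not pass in the other 10 fits without 1 library (0.0574 to 0.125) or with Y-linked expression in the model (log2 fold change 1.71, adjusted p 0.212). Without the 3 muscle-rich wild-type tumors the log2 fold change was 1.75 and the adjusted p 0.264. Gm11110, on the opposite strand, overlaps 14.9% of the exon bases of Tnfsf9, and the sources used here do not give the strand setting of the read counter.

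Tnfrsf9, the receptor of this ligand (chr4:150914562-150946102, plus strand), was at 20.1, 37.8 and 70.4 CPM (lowest, median, highest) in Arf6-null tumors, against 5.84, 20 and 70.4 CPM in wild-type tumors. The top of both ranges was alike, since wild-type tumor 2 reached the level of the highest Arf6-null tumor, while the lowest wild-type tumor was number 3. The log2 fold change was 0.56 (SE 0.53, adjusted p 0.556, edgeR). Promoter windows of 250 bases before the start were listed in RefSeq (GRCm38.p6) for 24 of the 31 members, and 2 of the 28 member windows held the NF-kB motif on either strand, against 3.9% of 32851 windows of all genes. Those were windows of Tnfrsf8 and Tnfrsf9. The ISRE core motif was held by 4 of the 28 member windows, against 2.98% of all windows. Tnfrsf9 was chosen because it is the receptor of the ligand with the smallest p, and it has 2 listed windows. The window at chr4:150919905-150920154 held 0 matches of the NF-kB, ISRE core or AP-1 motif. The other, at chr4:150927749-150927998 (plus strand), held matches and is shown. Capitals mark 2 overlapping NF-kB matches, taken by the motif's name, and 1 match of the AP-1 motif TGANTCA, which 5 of 28 member windows and 6.75% of all windows held.
Tnfrsf9 promoter: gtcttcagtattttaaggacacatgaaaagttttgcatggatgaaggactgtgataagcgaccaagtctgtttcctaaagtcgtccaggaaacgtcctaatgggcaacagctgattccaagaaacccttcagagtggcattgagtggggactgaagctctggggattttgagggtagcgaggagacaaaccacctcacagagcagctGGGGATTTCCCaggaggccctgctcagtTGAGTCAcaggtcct
A match describes the letters of this window and no factor binding was measured in these tumors.

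Most other ligands had medians below those of wild-type tumors without passing the test. Tnfsf12, which encodes TWEAK, a ligand of tissue repair and inflammation, was at 7.69, 11.5 and 16.9 CPM (lowest, median, highest) in Arf6-null tumors, against 11.8, 15.1 and 19.9 CPM in wild-type tumors. Its log2 fold change was -0.36 (SE 0.20, adjusted p 0.294, edgeR), and the highest Arf6-null tumors lay inside the wild-type range. Tnfsf13 (APRIL), a survival factor for plasma cells, was at 1.75, 2.77 and 3.62 CPM in Arf6-null tumors, against 2.60, 3.02 and 5.63 CPM in wild-type tumors, with a log2 fold change of -0.40 (SE 0.25, adjusted p 0.354). Both values are uncertain, because a readthrough gene, Tnfsfm13, shares 48.3% of the exon bases of Tnfsf12 and 60.0% of those of Tnfsf13 on the same strand.

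Tnfsf13b encodes BAFF, the main survival factor of B cells, which myeloid cells are known to make. It was at 1.55, 2.72 and 3.87 CPM (lowest, median, highest) in Arf6-null tumors, against 1.48, 3.42 and 8.40 CPM in wild-type tumors, with a log2 fold change of -0.67 (SE 0.41, adjusted p 0.347, edgeR). The ranges began at the same level, and the gap was at the top, where wild-type tumor 5 was highest. Macrophage and monocyte markers summed to 1625 to 2656 CPM in Arf6-null and 1371 to 3959 CPM in wild-type tumors, with 9 of 11 fold changes negative, and their part in the difference between genotypes was not tested. In bulk tumors fewer cells of a type and less RNA per cell cannot be told apart.

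Tnfsf10 encodes TRAIL, a death ligand that interferons are known to induce. Its levels were 1.86, 4.84 and 9.36 CPM (lowest, median, highest) in Arf6-null tumors, against 4.66, 6.42 and 13.6 CPM in wild-type tumors. Arf6-null tumors 1, 3 and 5 lay below the whole wild-type range, and the other 3 lay inside it. The log2 fold change was -0.65 (SE 0.40, adjusted p 0.35, edgeR), -0.14 with Y-linked expression in the model and -0.09 with the muscle score in the model. Tnfsf8, the ligand of the lymphocyte receptor Tnfrsf8, was at 0.396, 1.05 and 1.85 CPM in Arf6-null tumors, against 0.728, 1.48 and 3.29 CPM in wild-type tumors, with a log2 fold change of -0.73 (SE 0.44, adjusted p 0.343), and -0.17 and -0.21 with the same additions. Most of the Arf6-null range lay inside the wild-type range, which reached higher.

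Tnfsf11, which encodes RANKL, the ligand that drives osteoclast formation, was at 0.416, 4.46 and 8.73 CPM (lowest, median, highest) in Arf6-null tumors, against 3.21, 6.36 and 13.4 CPM in wild-type tumors. Its highest levels, 11.8 and 13.4 CPM, were in wild-type tumors 3 and 4, which are among the 3 with the most muscle marker RNA. The log2 fold change was -0.83 (SE 0.60, adjusted p 0.422, edgeR), -0.28 without those 3 tumors and 0.18 with the muscle score in the model, so its direction was not stable. Tnfsf15, an endothelial ligand of Tnfrsf25, stood near the limit of detection at 0.238, 0.369 and 0.497 CPM in Arf6-null tumors, against 0.0398, 0.474 and 1.28 CPM in wild-type tumors. It rested on 77 counts over the Arf6-null and 99 over the wild-type libraries, and the log2 fold change was -0.70 (SE 0.53, adjusted p 0.454).

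The remaining 3 ligands are costimulators of T cells and had positive log2 fold changes within their spread. Tnfsf18, the ligand of Tnfrsf18, had a median of 4.60 CPM in Arf6-null and 1.62 CPM in wild-type tumors, but the highest tumors were at 14.5 CPM in Arf6-null and 14.3 CPM in wild type (log2 fold change 0.54, SE 0.71, adjusted p 0.686, edgeR). Tnfsf4, the ligand of Tnfrsf4, had medians of 2.02 CPM in Arf6-null and 2.15 CPM in wild-type tumors (0.47, adjusted p 0.717). Tnfsf14 (LIGHT), the ligand of Tnfrsf14, had medians of 4.99 CPM in Arf6-null and 3.49 CPM in wild-type tumors (0.10, adjusted p 0.942).

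**Figure D3:**
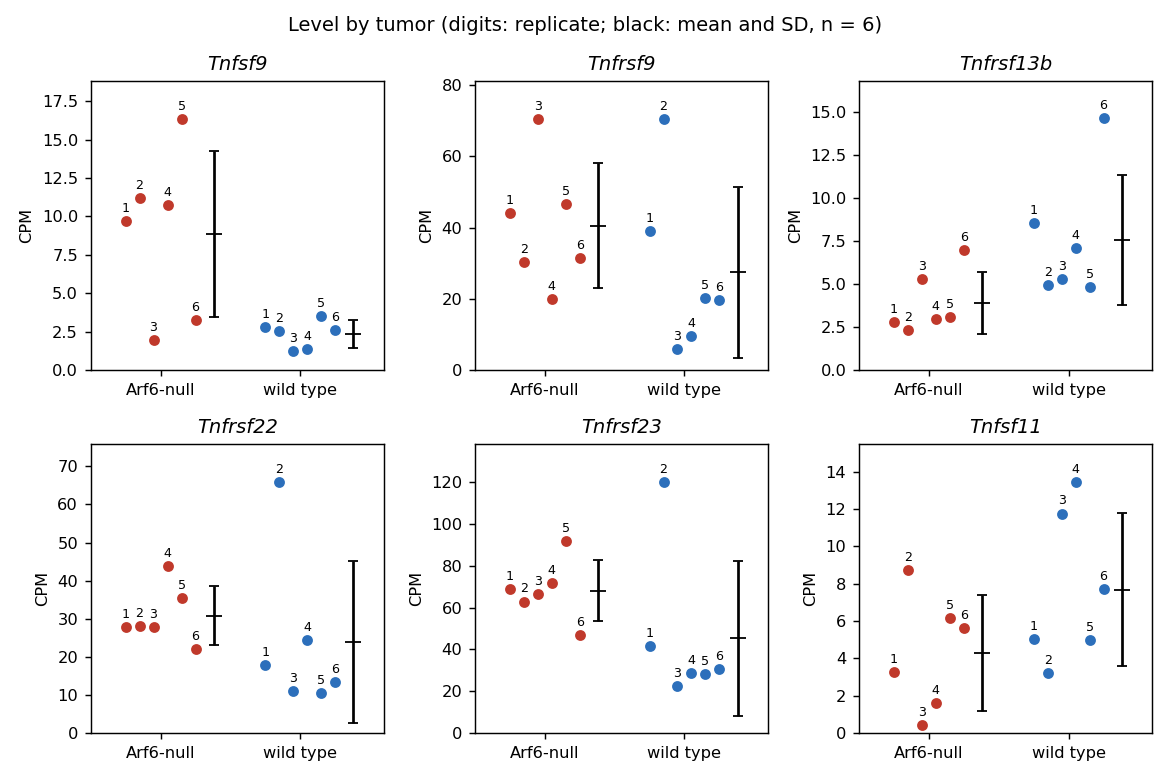
CPM of selected members in each tumor, Arf6-null left of wild type, with a point per tumor and a bar at the mean with its SD. Tnfsf9 shows 4 of 6 Arf6-null tumors above all wild-type tumors, and Tnfrsf23 shows wild-type tumor 2 at 120.3 CPM, above all other tumors.

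Among the receptors, the most abundant members did not pass the threshold, and their intervals spanned 0. Tnfrsf1a, the death domain receptor of TNF found on most cells, was at 157, 207 and 313 CPM (lowest, median, highest) in Arf6-null tumors, against 163, 182 and 221 CPM in wild-type tumors. Its log2 fold change was 0.19 (SE 0.16, 95% interval -0.16 to 0.54, adjusted p 0.515, edgeR). Tnfrsf1b, the TNF receptor without a death domain, common on leukocytes, was at 113, 138 and 183 CPM in Arf6-null tumors, against 66.3, 97.3 and 206 CPM in wild-type tumors (0.25, SE 0.27, 95% interval -0.35 to 0.84, adjusted p 0.618). For Tnfrsf1a the wild-type range lay inside the Arf6-null range, and for Tnfrsf1b the reverse held. Tnfrsf12a, the growth-factor-induced receptor of TWEAK, was at 109.6, 186 and 309.6 CPM in Arf6-null tumors, against 100, 139 and 217 CPM in wild-type tumors (0.34, SE 0.27, 95% interval -0.25 to 0.93, adjusted p 0.476). A p that misses the threshold does not show equal levels, and these intervals give the range of differences that the data allow.

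The TRAIL receptors of the mouse are the death receptor Tnfrsf10b and the decoys Tnfrsf22 and Tnfrsf23, which bind TRAIL without a death domain. Tnfrsf10b was at 13.7, 19.6 and 33.1 CPM (lowest, median, highest) in Arf6-null tumors, against 8.02, 16.2 and 24.6 CPM in wild-type tumors (log2 fold change 0.38, SE 0.32, adjusted p 0.501, edgeR). Tnfrsf23 was at 47.0, 67.7 and 91.9 CPM in Arf6-null tumors, against 22.3, 29.7 and 120.3 CPM in wild-type tumors. The highest wild-type value was that of tumor 2, and the Arf6-null tumors lay above the other 5 wild-type tumors without overlap. The log2 fold change was 0.59 (SE 0.38, adjusted p 0.376, edgeR) over all tumors. Without wild-type tumor 2 it was 1.17 (adjusted p 0.0222, edgeR). That tumor had the highest level, so leaving it out was bound to raise the fold, and this fit is no separate support. Tnfrsf23 passed in 1 of 12 fits without 1 library, with adjusted p up to 0.550. The log2 fold change was 0.10 without the 3 muscle-rich wild-type tumors and -0.07 with the muscle score in the model.

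Tnfrsf22 was at 22.03, 28.0 and 43.7 CPM (lowest, median, highest) in Arf6-null tumors, against 10.5, 15.7 and 65.9 CPM in wild-type tumors, again with tumor 2 at the top. Wild-type tumor 4, at 24.4 CPM, also lay above the lowest Arf6-null tumor. The log2 fold change of Tnfrsf22 was 0.37 (SE 0.43, adjusted p 0.637, edgeR). It was 0.999 (adjusted p 0.0485, edgeR) without wild-type tumor 2, where leaving out the highest tumor was again bound to raise it. Tnfrsf26, another receptor of the same cluster on chromosome 7, was at 1.45, 3.78 and 4.86 CPM in Arf6-null tumors, against 0.723, 2.21 and 7.67 CPM in wild-type tumors (0.16, SE 0.57, adjusted p 0.891). Wild-type tumor 2 was thus highest for all 3 neighbors. The counts of Tnfrsf22 and Tnfrsf23 are uncertain, because the genes are much alike. Of the 50-base words of Tnfrsf22 transcripts, 27.4% also occur in other genes, of which 1 is of the family. Among those of Tnfrsf23, 18% also occur in Tnfrsf22 and in no other gene. The coding sequences of the pair match at 479 of 528 aligned bases (90.7%). The most alike coding stretch of 120 bases is shown to make this plain, from coding base 384 to 503 of Tnfrsf22 (gene at chr7:143634806-143649661) and from 354 to 473 of Tnfrsf23 (chr7:143665809-143685872), both on the minus strand of GRCm38 and read from GENCODE M21 transcripts. Of these bases 118 are identical, and the 2 that differ are in capitals.
Tnfrsf22: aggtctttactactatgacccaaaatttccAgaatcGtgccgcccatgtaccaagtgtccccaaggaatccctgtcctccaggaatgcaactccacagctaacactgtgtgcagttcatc
Tnfrsf23: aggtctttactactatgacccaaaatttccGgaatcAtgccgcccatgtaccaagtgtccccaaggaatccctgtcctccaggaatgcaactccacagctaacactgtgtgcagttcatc
A read that lies inside the shared letters cannot be placed in either gene alone, and the sources used here do not say how the counter handled such reads.

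Tnfrsf13b had the smallest p among the receptors. It encodes TACI, a receptor for BAFF and APRIL on B cells and plasma cells (chr11:61126755-61149372). Levels were 2.32, 3.02 and 6.98 CPM (lowest, median, highest) in Arf6-null tumors, against 4.81, 6.21 and 14.7 CPM in wild-type tumors. The ranges overlapped between 4.81 and 6.98 CPM, and the highest level was in wild-type tumor 6. Means were 3.91 ± 1.82 CPM in Arf6-null and 7.57 ± 3.77 CPM in wild-type tumors (SD, n = 6 each), a log2 fold change of -0.95 (SE 0.36, 95% interval -1.73 to -0.17) with an unadjusted p of 0.0209 and an adjusted p of 0.144 (edgeR). Without wild-type tumor 6 the log2 fold change was -0.65 and with Y-linked expression in the model -0.73 (adjusted p 0.304), and in both fits 0 members were lower at an unadjusted p of 0.05. Of 8 B cell markers, 2 had enough counts to be tested, and the list summed to 1.256 to 6.15 CPM in Arf6-null and 2.05 to 9.74 CPM in wild-type tumors. Of 7 plasma cell markers, 6 were tested and 2 were lower at an unadjusted p of 0.05, with none called. The sum, 332 to 625 CPM in Arf6-null and 355 to 669 CPM in wild-type tumors, was mostly Sdc1 and Xbp1, which other cells also make. The antibody genes were lower in the mean, with Jchain at 1.005 ± 1.66 CPM in Arf6-null and 7.25 ± 9.36 CPM in wild-type tumors, and Ighm at 9.21 ± 13.03 CPM in Arf6-null and 25.5 ± 29.5 CPM in wild-type tumors (adjusted p 0.138 and 0.361). Of the 6 fold changes 5 were negative, with a median log2 fold change of -0.96, and the part of plasma cell RNA in the Tnfrsf13b values was not tested.

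The family's receptors on T cells varied widely among tumors of the same genotype. Tnfrsf18 (GITR), high on regulatory T cells, had medians of 2.81 CPM in Arf6-null and 2.24 CPM in wild-type tumors, with highest values of 12.9 CPM in Arf6-null and 15.3 CPM in wild type (log2 fold change 0.01, SE 0.69, adjusted p 0.995, edgeR). Tnfrsf4, a receptor of activated T cells, had medians of 3.61 CPM in Arf6-null and 3.24 CPM in wild-type tumors, with highest values of 11.6 CPM in Arf6-null and 15.5 CPM in wild type (-0.12, SE 0.55, adjusted p 0.913). Tnfrsf14, the receptor of LIGHT, had medians of 8.07 CPM in Arf6-null and 6.95 CPM in wild-type tumors (-0.21, adjusted p 0.821). Tnfrsf8 and Tnfrsf25, also receptors of activated lymphocytes, had log2 fold changes of 0.02 (adjusted p 0.985) and -0.0033 (adjusted p 0.997). T cell markers summed to 27.6 to 184 CPM in Arf6-null and 35.1 to 238 CPM in wild-type tumors, with 0 of 13 called.

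Tnfrsf11a, which encodes RANK, the receptor of Tnfsf11, was at 3.57, 7.23 and 16.0 CPM (lowest, median, highest) in Arf6-null tumors, against 6.35, 10.3 and 15.3 CPM in wild-type tumors. Its log2 fold change was -0.48 (SE 0.36, adjusted p 0.435, edgeR), and the highest tumor of all was Arf6-null. Tnfrsf11b encodes osteoprotegerin, a secreted decoy for RANKL. Its medians were 2.98 CPM in Arf6-null and 4.69 CPM in wild-type tumors, with highest values of 20.8 CPM in Arf6-null and 14.7 CPM in wild type (-0.10, SE 0.67, adjusted p 0.941). Tnfrsf21, a death domain receptor of many tissues, had medians of 58.4 CPM in Arf6-null and 55.1 CPM in wild-type tumors (-0.14, adjusted p 0.863). Tnfrsf19, a receptor known from skin and the nervous system, spanned 216.9-fold over the 12 tumors. It ran from 0.0297 to 6.44 CPM in Arf6-null and from 0.451 to 4.73 CPM in wild-type tumors. The low end rests on 1 count in Arf6-null tumor 3, with 2 counts each in Arf6-null tumors 1 and 6. The log2 fold change of Tnfrsf19, 0.07, had a 95% interval of -2.20 to 2.34 (adjusted p 0.975, edgeR).

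Across tumors, the family was highest in individual tumors of both genotypes. Of the 29 tested members, 9 had their highest level in wild-type tumor 6, namely Tnfrsf13b, Tnfrsf18, Tnfrsf1b, Tnfrsf25, Tnfrsf4, Tnfrsf8, Tnfsf12, Tnfsf15 and Tnfsf8. Another 5 peaked in wild-type tumor 5, among them Tnfsf10, Tnfsf13 and Tnfsf13b, and 4 in wild-type tumor 2, including the cluster of Tnfrsf22, Tnfrsf23 and Tnfrsf26. In Arf6-null tumors, 4 members peaked in tumor 5 (Tnfsf9, Tnfrsf1a, Tnfrsf11b and Tnfrsf19), 3 in tumor 3 and 2 in tumor 4. The mean log2 level of T cell markers was highest in wild-type tumor 6 at 3.82, followed by Arf6-null tumor 6 at 3.54 and wild-type tumor 5 at 3.06. All 3 are among the 4 tumors with almost no Y-linked RNA, and its part in these levels was not tested.

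**Figure D4:**
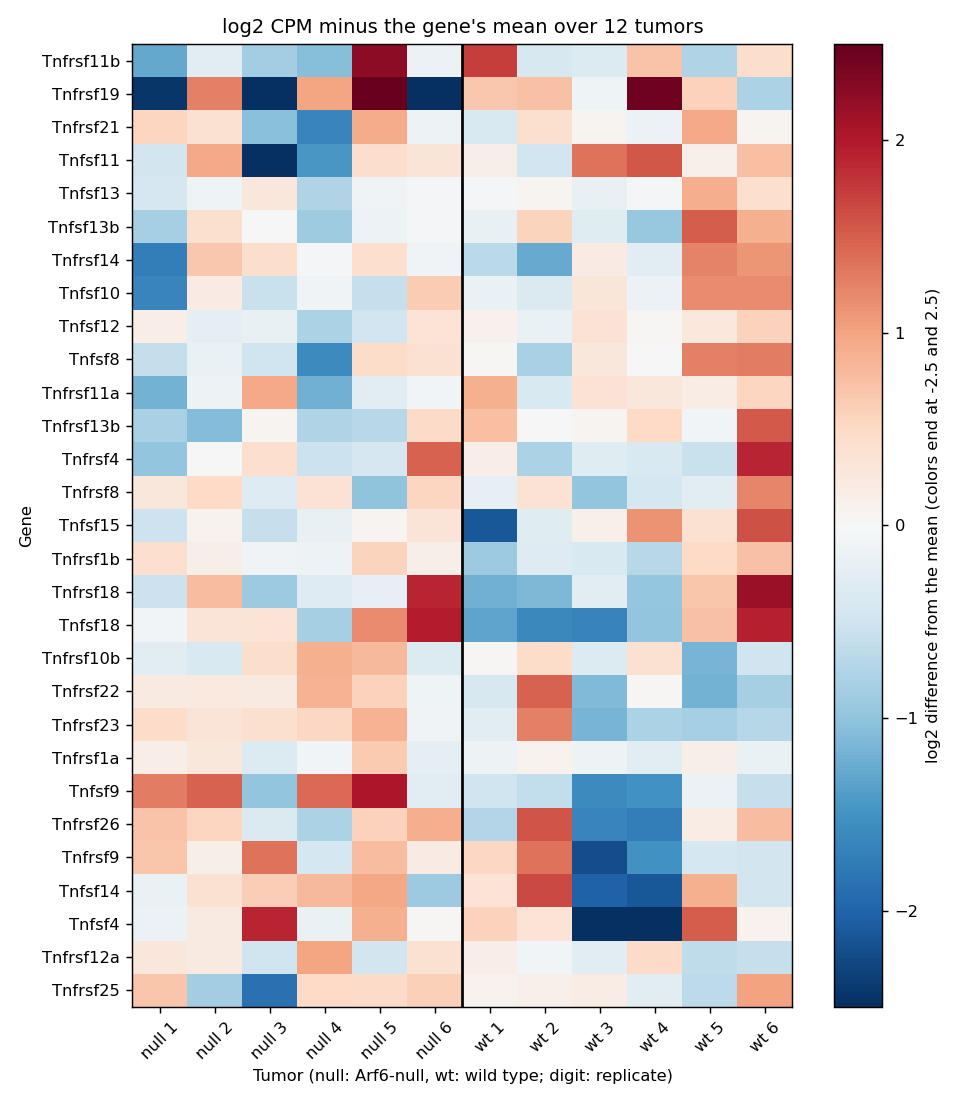
Log2 CPM of each tested member in each tumor as a difference from the mean of that member over the 12 tumors, with Arf6-null tumors left of wild-type tumors rows ordered by likeness and colors ending at 2.5 either side of 0. Wild-type tumor 6 holds the highest level of 9 of the 29 members.

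Members were then set against marker lists of the cells known to make them, over 12 tumors with permutation p-values from 100000 resamples, adjusted over 6 relations. Tnfrsf18 followed the T cell score with a Pearson r of 0.924 (p = 6e-05, adjusted p = 0.00036) and a Spearman rho of 0.811 (p = 0.00206, adjusted p = 0.0124). The r was 0.952 within Arf6-null and 0.958 within wild-type tumors (n = 6 each), and 0.831 without the 2 tumors farthest from the median score. Tnfsf13b followed the macrophage and monocyte score with an r of 0.801 (permutation p = 0.00168, adjusted p = 0.00504) and a rho of 0.748 (p = 0.00723, adjusted p = 0.0217). This r was 0.788 within Arf6-null and 0.772 within wild-type tumors, and it was 0.779 without the 2 farthest tumors.

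Over all 12 tumors r was lower for the remaining 4 relations. Tnfrsf4 and the T cell score gave an r of 0.683 (permutation p = 0.0129, adjusted p = 0.0257) and a rho of 0.441 (p = 0.156, adjusted p = 0.203). That r was 0.826 within Arf6-null and 0.579 within wild-type tumors, and it was 0.075 without Arf6-null tumor 6 and wild-type tumor 6, so the relation rests on those 2 tumors. Tnfsf10 and the interferon targets gave an r of 0.324 over all tumors (permutation p = 0.303, adjusted p = 0.303) and a rho of 0.524 (p = 0.0839, adjusted p = 0.168). The r was 0.877 within Arf6-null and 0.825 within wild-type tumors, and 0.405 without the 2 farthest tumors. Interferon target sums were 577 to 1340 CPM in Arf6-null tumors, against 239 to 1440 CPM in wild-type tumors, with 12 of 12 fold changes positive and 0 called. Tnfrsf13c and the B cell score gave an r of 0.49 (permutation p = 0.104, adjusted p = 0.156) and a rho of 0.378 (p = 0.228, adjusted p = 0.228), with 0.559 within Arf6-null, 0.466 within wild-type tumors and 0.441 without the 2 farthest. Tnfrsf13c had at most 14 counts in any library, too few to test, and the B cell score is the mean of only 2 genes. Tnfrsf11b and the fibroblast score gave an r of 0.418 (permutation p = 0.175, adjusted p = 0.21) and a rho of 0.427 (p = 0.169, adjusted p = 0.203), with 0.142 within Arf6-null, 0.863 within wild-type tumors and 0.04 without the 2 farthest.

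**Figure D5:**
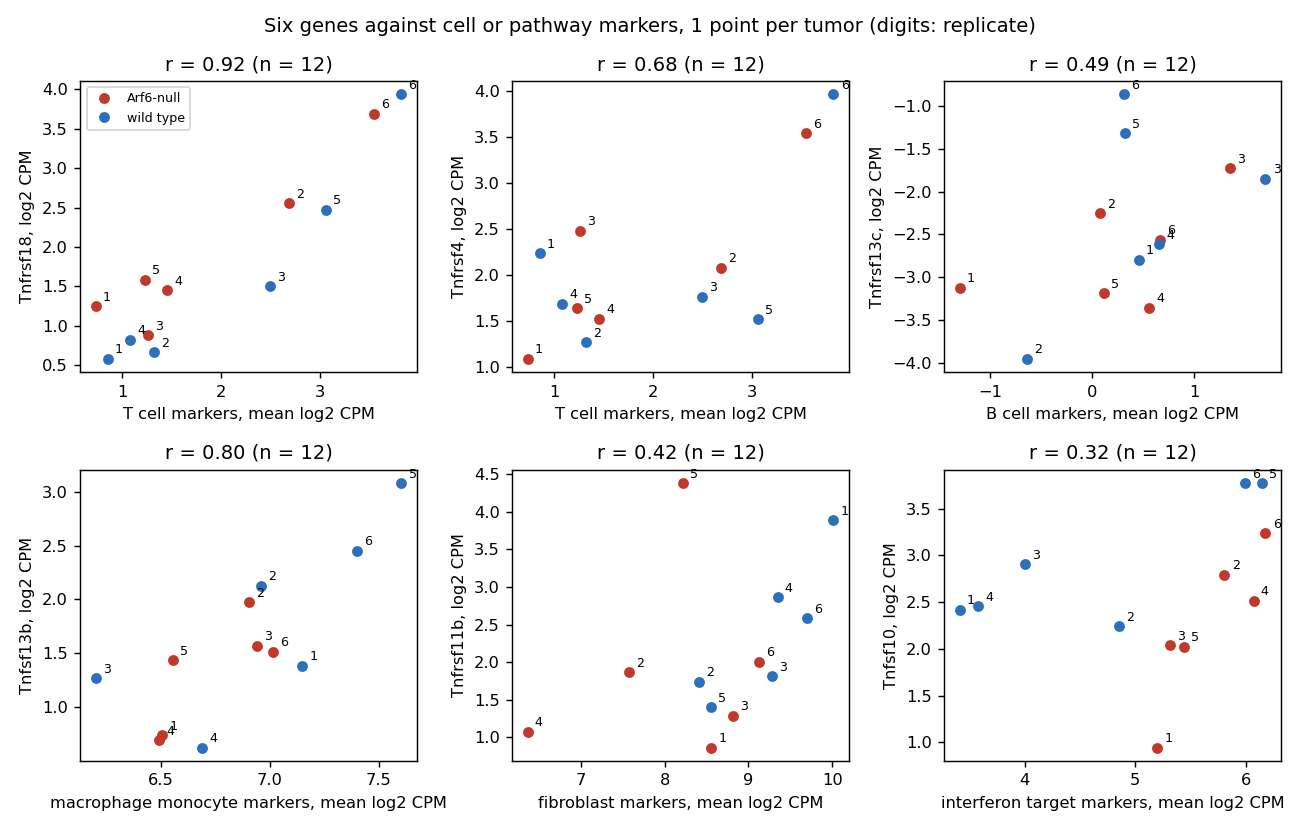
Log2 CPM of 6 members against the mean log2 CPM of a marker list, a point per tumor, with Arf6-null and wild-type tumors in separate colors. Tnfrsf18 rises with the T cell score in both genotypes (r = 0.952 in Arf6-null and 0.958 in wild type).

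Family genes with other names and the genes that carry the signal were followed as well, and none was called. Of 7 ligands with other names, 5 were tested. Lta, a ligand of lymphoid tissue, averaged 0.343 ± 0.179 CPM in Arf6-null and 0.681 ± 0.294 CPM in wild-type tumors (SD, n = 6 each; log2 fold change -0.97, adjusted p 0.149, edgeR), and its partner Ltb averaged 5.58 ± 5.57 CPM in Arf6-null and 9.52 ± 8.16 CPM in wild-type tumors (adjusted p 0.487). Of 8 receptors with other names, 7 were tested. Their receptor Ltbr averaged 112 ± 18.8 CPM in Arf6-null and 93.3 ± 12.7 CPM in wild-type tumors (adjusted p 0.245), and the neurotrophin receptor Ngfr averaged 0.585 ± 0.541 CPM in Arf6-null and 1.65 ± 1.88 CPM in wild-type tumors (adjusted p 0.283).

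Downstream, all 14 TRAF and adaptor genes, 17 genes of the death machinery and 18 genes of NF-kB signaling were tested. Medians of their log2 fold changes were -0.07, 0.08 and 0.12. At an unadjusted p of 0.05, 1 adaptor was higher and 2 were lower, 2 death genes were higher, and 2 NF-kB genes were higher and 1 lower. None of the 3 lists exceeded the 23.4% of all tested genes that reached that p. Edaradd, the adaptor of the ectodysplasin receptor, averaged 0.479 ± 0.119 CPM in Arf6-null and 1.03 ± 0.411 CPM in wild-type tumors (SD, n = 6 each; log2 fold change -1.09, adjusted p 0.0674, edgeR). Fadd, the adaptor that binds death domains, averaged 15.7 ± 1.259 CPM in Arf6-null and 12.9 ± 1.62 CPM in wild-type tumors (adjusted p 0.162). Mlkl, the executor of necroptosis, averaged 63.4 ± 19.4 CPM in Arf6-null and 42.9 ± 8.11 CPM in wild-type tumors (0.56, adjusted p 0.128). Bak1, a pore-forming protein of apoptosis, averaged 75.3 ± 8.18 CPM in Arf6-null and 64.8 ± 6.91 CPM in wild-type tumors (adjusted p 0.204).

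In the NF-kB list the smallest p-values were those of Rela and Map3k7. Rela, the p65 subunit of NF-kB, was at 85.1 to 92.5 CPM in Arf6-null tumors, against 71.2 to 80.0 CPM in wild-type tumors, with a log2 fold change of 0.26 (SE 0.06, adjusted p 0.0583, edgeR). Map3k7, the kinase that links receptor complexes to NF-kB, was at 68.1 to 75.2 CPM in Arf6-null tumors, against 80.9 to 93.5 CPM in wild-type tumors, with a log2 fold change of -0.28 (SE 0.07, adjusted p 0.0564). The genotypes did not overlap for either gene, a pattern found in 2.36% of all genes, and neither passed the adjusted threshold.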

How the data were processed

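RNA was taken from 12 tumors, 6 of each genotype, and sequenced from stranded poly(A) libraries, per the labels' protocols. The table deposited by the authors gives whole-number read counts per gene, not normalized. The submitters' processing notes name STAR 2.7.3a, featureCounts 1.6.3, DESeq2 1.26.0 and the mouse build GRCm38. The sources used here name neither the counter's strand setting nor its annotation. Groups came from the genotype labels.

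Symbols and coordinates came from GENCODE M21. The filterByExpr function (minimum 10 counts) left 16225 genes with 99.9% of all counts. Genotypes were compared with the robust quasi-likelihood F test of edgeR 4.0.16 (TMM scaling, R 4.3.3), with Benjamini-Hochberg adjustment over all tested genes and a threshold of 0.05. Standard errors came from the F statistic. CPM used scaled library sizes, and log2 CPM a prior count of 2. No pair of the 66 library pairs agreed within sampling noise. Genes that take up few counts have wider errors, and library totals of 21007954 to 45688253 counts set that limit.

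The members, gene lists and tests were chosen with earlier results of these data known. Full values are given for the members of smallest p, up to 14, and the 3 ligands and 4 receptors of highest level per length; of each pathway list, for the 2 genes of smallest p. Tnfrsf9, Tnfrsf22 and Tnfrsf26 were added after their values were seen. Alternatives were DESeq2 1.42.0, limma-voom (limma 3.58.1), other scalings and filters, a Y-linked covariate, a threshold of 0.1 and each library left out. Thinned counts, removal of the 3 muscle-rich libraries and a muscle covariate were added after seeing the data.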

Additional observations from a re-analysis of the deposited data

Results flagged for a closer look

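The 29 tested members, the library totals and 5 marker scores, each within either genotype, made 70 sets of 6 tumors. Of these, 5 had a tumor far from the others, where chance, at about 1 in 20, would single out 3.5. All 5 were members, given as log2(CPM + 1). Tnfrsf11b, the decoy of RANKL, was at 4.44 in Arf6-null tumor 5 (20.8 CPM), with the others between 1.46 and 2.31. Tnfrsf14 was at 1.61 in Arf6-null tumor 1 (2.06 CPM), below the others at 2.92 to 3.62. Tnfrsf19 was at 2.52 in wild-type tumor 4 (4.73 CPM), with the others between 0.54 and 1.28. The decoy Tnfrsf23 was at 6.92 in wild-type tumor 2 (120.3 CPM), with the others between 4.54 and 5.41. Tnfrsf4 was at 4.05 in wild-type tumor 6 (15.5 CPM), with the others between 1.74 and 2.499.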

How the results depend on the processing

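Over the alternatives, the count of called members was 0 in the edgeR fit (1.15% of all genes), 1 with DESeq2 (11.8%) and 1 at a threshold of 0.1 (8.38%). It was 0 to 2 with 1 library left out. The 2 were Tnfrsf22 and Tnfrsf23 without wild-type tumor 2, a fit that called 4.69% of all genes. The count at an unadjusted p of 0.05 was 2 (23.4% of all genes), against 5 with limma-voom (27.9%). With 1 library left out it was 2 to 5, with 5 without wild-type tumor 2, where 26.6% of all genes reached that p. Members with ranges that did not overlap numbered 0 to 1, and the share of all genes was taken only over all 12 tumors (2.36%). The median log2 fold change of members was 0.01, -0.30 without the 3 muscle-rich wild-type tumors, and -0.12 to 0.17 with 1 library left out. Tnfsf9 stayed positive in 22 settings (1.64 to 2.12, adjusted p 0.00202 to 0.273) and passed in 3, and Tnfrsf13b stayed negative (-1.37 to -0.65, adjusted p 0.0662 to 0.304) and passed in 0. With the muscle score as a covariate Tnfrsf23 turned to -0.072 and Tnfsf11 to 0.18, and Tnfsf15 moved to -0.06 and Tnfrsf10b to 0.23; the cause was not tested. With Y-linked expression as a covariate Tnfsf12 moved to -0.16, Tnfsf13b to -0.34, Tnfsf13 to -0.26, Tnfrsf23 to 0.28, Tnfrsf10b to 0.07 and Tnfrsf1b to 0.54, none of them past the threshold. With 1 library left out, r was 0.892 to 0.95 for Tnfrsf18, 0.515 to 0.80 for Tnfrsf4, 0.688 to 0.867 for Tnfsf13b, 0.259 to 0.672 for Tnfrsf11b, 0.362 to 0.603 for Tnfrsf13c and 0.213 to 0.439 for Tnfsf10. The adjusted p of Tnfrsf4 was 0.0124 to 0.148, and it lost its call without Arf6-null tumor 1, Arf6-null tumor 6 or wild-type tumor 6. The relation of Tnfrsf11b passed without Arf6-null tumor 5 (r 0.672, adjusted p 0.04). No paired analysis was possible because the labels give no replicate numbers shared between genotypes and tie no tumor to another. Without the filter on low counts all 31 members were fitted and 0 were called, but Tnfrsf13c and Tnfrsf17 then rest on the few counts given above.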

Other observations

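Natural killer cell markers summed to 68.6 to 212 CPM in Arf6-null and 39.9 to 248 CPM in wild-type tumors, and neutrophil markers to 39.4 to 140.1 CPM in Arf6-null and 15.8 to 128 CPM in wild-type tumors. Regulatory T cell markers summed to 11.7 to 46.8 CPM in Arf6-null and 9.76 to 67.5 CPM in wild-type tumors. Mast cell markers summed to 5.68 to 102 CPM in Arf6-null and 46.3 to 569.9 CPM in wild-type tumors. At an unadjusted p of 0.05, 7 of 7 were lower with 0 called, against 12.4% of all tested genes lower at that p. Skeletal muscle had 12 of 12 lower, with 1 called (Pvalb, log2 fold change -7.22, adjusted p 0.0392, edgeR). Tested Schwann cell markers had 4 of 5 lower and endothelial markers 4 of 8. Natural killer cell, neutrophil and regulatory T cell markers had 0 lower, and none of these lists had a marker higher at that p. Fibroblast markers summed to 2316 to 16040 CPM in Arf6-null and 6674 to 23800 CPM in wild-type tumors, and endothelial markers to 95.2 to 366 CPM in Arf6-null and 186 to 459 CPM in wild-type tumors. Dendritic cell markers summed to 54.4 to 109.9 CPM in Arf6-null and 37.6 to 112 CPM in wild-type tumors. Most of this was Itgax, which averaged 62.2 CPM in Arf6-null and 40.4 CPM in wild-type tumors. Of 9 tested dendritic cell markers, 6 had negative log2 fold changes and 3 (Flt3, Batf3 and Itgax) positive ones. At an unadjusted p of 0.05, 3 were lower and 0 higher, and Cd209a was called lower (log2 fold change -4.25, adjusted p 0.0292, edgeR). Keratinocyte markers summed to 6.24 to 23.3 CPM in Arf6-null and 5.41 to 12.3 CPM in wild-type tumors, and Schwann cell markers to 5.78 to 9.86 CPM in Arf6-null and 9.96 to 28.2 CPM in wild-type tumors. The part of these cells in the family's values was not tested.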
